A study of Mus musculus with 2 samples.

Results

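The enzymes that write and erase chemical marks on histones were compared between 2 cell samples sorted from the spleens of C57BL/6 mice bearing hepatocellular carcinoma, a liver cancer. The members were all genes with a symbol of the Kdm, Kmt, Hdac, Kat, Setd, Suv, Prmt, Ezh, Sirt, Ehmt, Dot1l or Nsd families in the array's annotation, which gave 79 of the 18193 genes with a value, and 197 probe sets. Of the 79, 43 were writers (methyltransferases and acetyltransferases) and 36 were erasers (demethylases, deacetylases and sirtuins). The first sample held Ter119-positive, CD45-negative cells, that is, cells with the red cell surface marker and without the common white cell marker. The second held CD45-positive cells from the same tumour-bearing animals and served as the control. Both samples therefore came from tumour-bearing mice, and no sample of tumour-free mice was analysed here. Whether Ter119 was part of the CD45-positive gate, how many mice were pooled, their age and sex, and how the tumours were raised are not given in the sources used here.

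With 1 array for each group the data hold no replicate error, so no test was made and no p-value is given. All values below are intensities on a linear scale unless a log2 difference is named, and each difference is CD45-negative minus CD45-positive. An intensity above 101.1 was taken as measured. This level is the 95th percentile of 80 probe sets for odour and pheromone receptors that spleen cells are not known to use. A value at or under that level was set to it, so the difference of a gene measured in 1 array only is a lower bound, written "at least". Repetition came only from genes with several probe sets, whose differences had a pooled SD of 0.83 (log2 differences, 5474 genes), which says nothing of variation between animals or arrays. The gates matched their labels: all 12 erythroid markers with a value were at least 4-fold higher in CD45-negative cells (median difference 6.07), all 12 lymphocyte markers were at least 4-fold lower (median -5.62), and 11 of 12 myeloid markers passed 4-fold downward (median -4.61). All 6 megakaryocyte and platelet markers were higher as well (median 4.57), with a summed intensity of 34822 in CD45-negative cells against 1642 in CD45-positive cells; their part in the values below was not tested. In CD45-negative cells 3 of the 12 lymphocyte markers and 2 of the 12 myeloid markers were under the level, Cd3d, Cd2, Cd4, Cd68 and Itgam. The others stayed above it there, with values of up to 630.2 (Cd79b) and 1889 (S100a8). In such sorted bulk samples, fewer cells that carry a transcript and less of it per cell cannot be told apart.

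Histone tails carry methyl groups on lysines and arginines and acetyl groups on lysines. Acetylation and methylation of H3K4, H3K36 and H3K79 are found at active genes, while methylation of H3K9, H3K27 and H4K20 is linked to silent or compacted chromatin. Red cell precursors shut down most of their genes and condense their nucleus before they expel it, and their chromatin enzymes are studied for that reason. Deacetylases and the demethylase Kdm1a also act there as partners of repressors such as Gfi1b.

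Past 4-fold, the enzymes' shares were near those of other genes, while more of them were dimmer in CD45-negative cells. Of the 79, 76 were measured in at least 1 array and 64 in both. At least 4-fold higher in CD45-negative cells were 6 of the 76 (7.89%), beside 8.31% of all 11793 measured genes. At least 4-fold lower were 12 (15.8%), beside 16.8% of all measured genes. Both shares lay near their background and so are no result about the enzymes. At the lower threshold of 2-fold, 10 enzymes were higher and 26 lower in CD45-negative cells, beside 16.8% and 33.3% of all measured genes. The other 40 of the 76 (52.6%) differed by less than 2-fold, against 50.0% of all measured genes. In all, 55 of the 76 (72.4%) were dimmer in CD45-negative cells, beside 56.7% of all measured genes. The median difference was -0.50 for the enzymes and -0.26 for all measured genes, which is a description across genes of the same arrays. What follows is therefore about which enzyme of a kind was present in which cells.

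**Figure D1:**
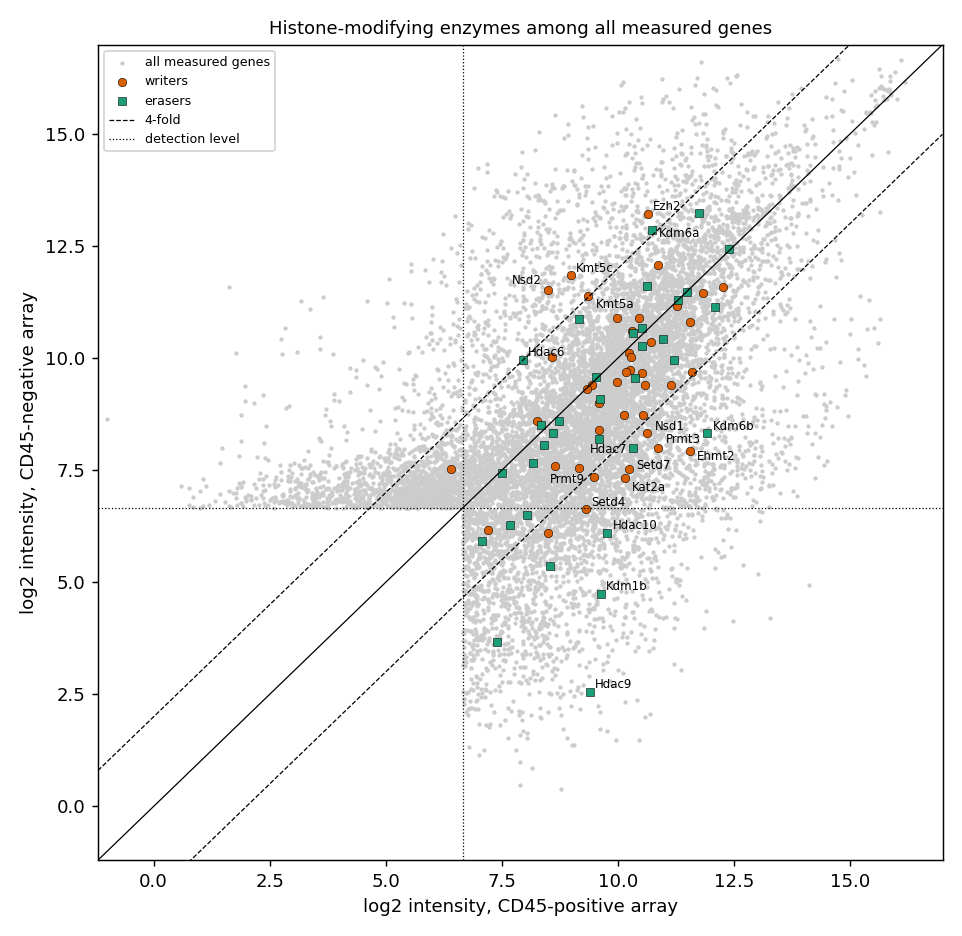
Log2 intensity of every measured gene (grey), of writers (orange circles) and of erasers (green squares), with the CD45-negative array on the vertical axis and the CD45-positive array on the horizontal axis. The 6 named enzymes above the upper dashed line and the 12 below the lower one differed by at least 4-fold; the other enzymes lie between the lines or are dim.

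Writers and erasers were compared by their medians. The 42 measured writers had a median difference of -0.54, with 4 (9.52%) past 4-fold upward and 7 (16.7%) past it downward in CD45-negative cells. The 34 measured erasers had a median of -0.39, with 2 (5.88%) higher and 5 (14.7%) lower. The medians differed by -0.15, and this difference was not tested. The quartiles ran from -1.71 to 0.22 for writers and from -1.19 to 0.06 for erasers. Writers and erasers thus overlapped over nearly their whole range, and enzymes of opposite function did not move in opposite directions as groups.

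**Figure D2:**
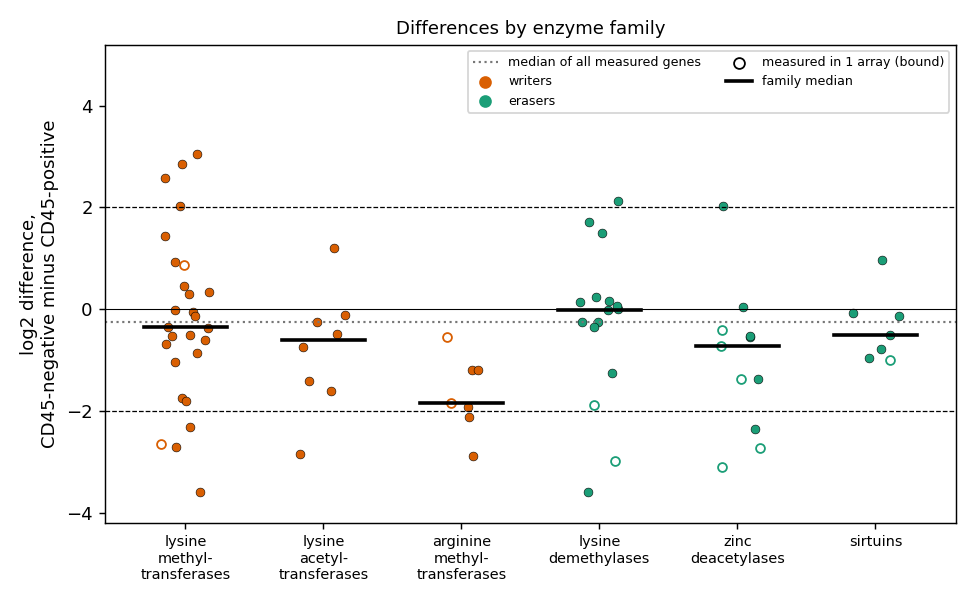
Log2 difference, CD45-negative minus CD45-positive, of each measured enzyme by family, with writers in orange and erasers in green; open symbols are bounds, thick bars family medians, dashed lines 4-fold, and the dotted line the median of all measured genes. All 7 measured arginine methyltransferases with a Prmt symbol lie below 0, while lysine methyltransferases spread from -3.60 to 3.04.

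Among the writers, the H4K20 methyltransferases showed a split between related enzymes. Kmt5a places the first methyl group on H4K20, is made mainly in late S and G2 phases of the cell cycle, and is known in the mouse for its abundance in maturing red cells. Kmt5a had 2696 in CD45-negative cells against 664 in CD45-positive cells, 4.06-fold higher, and its 3 measured probe sets gave differences from 0.66 to 2.62. Kmt5c, which adds further methyl groups in heterochromatin, had 3680 in CD45-negative cells against 508 in CD45-positive cells, 7.25-fold higher. Its relative Kmt5b, which does the same step, went the other way by its brightest probe set, with 429 in CD45-negative cells against 1499 in CD45-positive cells, a difference of -1.81. The probe sets of Kmt5b disagreed, with differences from -1.81 to 0.99, so its direction is uncertain. The enzyme for the first step and 1 of the enzymes for the next steps were thus higher in the CD45-negative array.

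The H3K27 methyltransferases also differed from each other, though not in opposite directions. Ezh2, the catalytic subunit of the repressive complex PRC2 in dividing cells, had 9571 in CD45-negative cells against 1607 in CD45-positive cells, 5.95-fold higher by its only probe set. Ezh1, the alternative catalytic subunit found also in resting cells, had 1572 in CD45-negative cells against 1279 in CD45-positive cells, a difference of 0.30. Of the partners of both, Suz12, needed for PRC2 activity, had 6860 in CD45-negative cells against 1701 in CD45-positive cells, 4.03-fold higher by its brightest probe set. The 6 measured probe sets of Suz12 ran from 1.05 to 2.01. The histone-binding subunits Rbbp4 (37773 in CD45-negative cells against 12605 in CD45-positive cells) and Rbbp7 (19917 against 9738) were brighter by less than 4-fold, although the probe sets of Rbbp4 ran from -0.38 to 2.05. Eed, which reads the finished mark, had 2204 in CD45-negative cells against 3184 in CD45-positive cells, and Jarid2, which helps to recruit PRC2, had 632 against 1605. Suz12 was the 1 of 8 measured PRC2 partners at least 4-fold higher (12.5%, beside 8.31% of all measured genes). None was 4-fold lower, beside 16.8% of all measured genes, and the partners' median difference was -0.57. Suz12, Rbbp4 and Rbbp7 were at least 2-fold brighter by their brightest probe sets (2.01, 1.58 and 1.03). The 5 dimmer partners were Eed, Jarid2, Mtf2 (-0.69), Phf19 (-0.66) and Phf1 (-0.62). The listed partners were thus mixed, and their median depends on which subunits are listed.

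Cell division genes moved with Ezh2, Kmt5a and Kmt5c. All 19 mitosis genes with a value were at least 4-fold higher in CD45-negative cells (median difference 4.53), and their summed intensity was 355055 in CD45-negative cells against 15737 in CD45-positive cells. Among the 20 genes of DNA replication, 16 passed 4-fold upward and none downward (median 2.78), with a summed intensity of 328184 in CD45-negative cells against 49661. The part of cell division in the higher values of these enzymes was not tested.

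The promoters of these relatives are shown because the enzymes of each kind differed, and because sites for cell cycle factors can be looked for in them. Each is the RefSeq window of GRCm38.p6 (300 bases, most of them upstream of a gene's start), 5′ to 3′ on the strand of the gene. Capitals mark matches, on either strand, to the E2F words TTTGGCGC, TTTGCCGC, TTTCGCGC and TTTCCCGC, to the NF-Y word CCAAT, and to the cell cycle homology region, searched as TTTGAA and also as TTCGAA. For Kmt5a and Kmt5b, with 3 and 2 windows, the most upstream start is shown. Ezh2 lies at chr6:47594981-47595280 (minus strand), Ezh1 at chr11:101226414-101226713 (minus strand), Kmt5c at chr7:4739877-4740176, Kmt5a at chr5:124439680-124439979 and Kmt5b at chr19:3767171-3767470 (plus strand for these 3).
Ezh2: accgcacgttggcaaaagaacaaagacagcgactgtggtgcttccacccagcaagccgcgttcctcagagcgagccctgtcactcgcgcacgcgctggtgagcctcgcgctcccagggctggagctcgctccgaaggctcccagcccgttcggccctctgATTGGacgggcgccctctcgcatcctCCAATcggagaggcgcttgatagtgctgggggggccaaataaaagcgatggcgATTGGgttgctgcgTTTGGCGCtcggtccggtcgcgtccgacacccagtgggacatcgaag
Ezh1: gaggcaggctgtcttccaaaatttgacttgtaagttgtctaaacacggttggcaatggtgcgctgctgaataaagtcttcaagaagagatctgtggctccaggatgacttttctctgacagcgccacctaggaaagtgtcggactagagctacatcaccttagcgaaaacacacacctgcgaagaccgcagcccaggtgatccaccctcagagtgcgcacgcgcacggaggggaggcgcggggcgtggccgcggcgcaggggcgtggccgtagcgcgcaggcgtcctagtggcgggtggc
Kmt5c: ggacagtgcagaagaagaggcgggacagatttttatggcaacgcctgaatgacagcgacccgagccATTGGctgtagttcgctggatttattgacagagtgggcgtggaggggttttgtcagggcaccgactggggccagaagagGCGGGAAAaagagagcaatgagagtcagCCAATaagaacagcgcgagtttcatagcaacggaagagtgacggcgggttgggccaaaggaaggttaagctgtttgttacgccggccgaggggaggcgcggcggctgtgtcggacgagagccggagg
Kmt5a: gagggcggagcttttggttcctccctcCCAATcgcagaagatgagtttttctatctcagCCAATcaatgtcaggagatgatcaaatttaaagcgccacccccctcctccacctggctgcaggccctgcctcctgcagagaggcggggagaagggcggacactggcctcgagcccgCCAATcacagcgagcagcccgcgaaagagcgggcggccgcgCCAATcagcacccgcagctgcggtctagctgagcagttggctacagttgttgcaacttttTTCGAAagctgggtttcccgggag
Kmt5b: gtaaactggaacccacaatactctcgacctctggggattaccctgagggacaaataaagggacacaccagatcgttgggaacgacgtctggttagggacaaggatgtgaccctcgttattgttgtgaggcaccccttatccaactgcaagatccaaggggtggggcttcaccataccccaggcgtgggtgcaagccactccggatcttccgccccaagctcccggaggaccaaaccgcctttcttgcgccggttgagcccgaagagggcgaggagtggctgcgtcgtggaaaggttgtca

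The printed windows of the 3 higher enzymes held marked words and those printed for Ezh1 and Kmt5b held none, while the second window of Kmt5b held 1 cell cycle homology word. Ezh2 had 1 E2F word and 3 CCAAT words, Kmt5c had 1 E2F word and 2 CCAAT words, and Kmt5a had 4 CCAAT words and 1 cell cycle homology word. Of all 32851 windows of the same length, 2.26% held an E2F word, 37.4% a CCAAT word and 19.2% a cell cycle homology word. Counted by gene, over all windows of a gene, these words were found for 704, 11096 and 5854 of 27025 genes. The counts of enzymes below are by gene. Of the 6 enzymes at least 4-fold higher, 5 had a window, and CCAAT was present for 4 of these and absent for Kdm6a. Of the 12 lower enzymes, 9 had a window, and CCAAT was present for Prmt3 and Setd4. The lower enzymes also held such words: Kat2a had 1 E2F word, and Hdac9 and Kdm1b had 1 cell cycle homology word each. Of the 50 enzymes with a window that were not past 4-fold, 24 held a CCAAT word, 9 a cell cycle homology word and 1 an E2F word. The printed promoters were picked after the enzymes' values were seen, so their contrast is no result about the motifs. The erythroid GATA motif was searched as the word AGATAA, the word TGATAA, the word AGATAG and the word TGATAG. It was found for 3 of the 5 higher and 4 of the 9 lower enzymes with a window. Over all genes it was found for 8930 of 27025, and in 29.8% of all windows. A match is a description of letters and not of a bound site.

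The H3K36 methyltransferases were split between Nsd2 and Nsd1, close relatives that place up to a pair of methyl groups. Nsd2 had 2960 in CD45-negative cells against 360.4 in CD45-positive cells, 8.21-fold higher and the largest difference of the 6 higher enzymes. All 5 of its measured probe sets were brighter in CD45-negative cells, with differences from 0.62 to 3.04. Nsd1 had 321 in CD45-negative cells against 1593 in CD45-positive cells, 4.96-fold lower by its brightest probe set, while its 4 measured probe sets ran from -2.31 to -0.20. Averaging all probe sets of Nsd1 gave -1.23, under 4-fold. The third relative, Nsd3, had 2821 in CD45-negative cells against 3642 in CD45-positive cells. Setd2, the enzyme for the full methylation of H3K36 along transcribed genes, had 1103 in CD45-negative cells against 1205 in CD45-positive cells, a difference of -0.13.

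**Figure D3:**
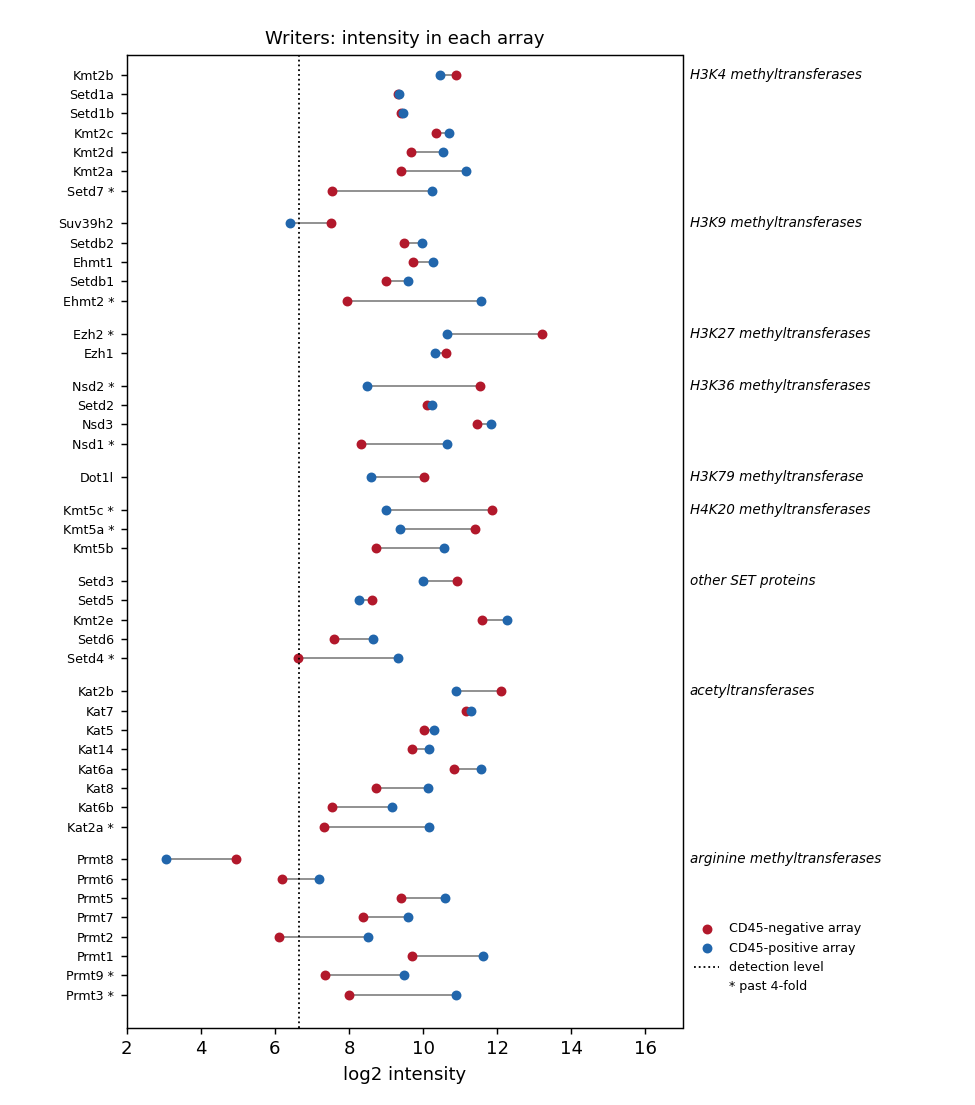
Log2 intensity of each of the 43 writers in the CD45-negative array (red) and the CD45-positive array (blue), grouped by target site and sorted within a group by difference; the dotted line is the detection level and an asterisk marks a difference of at least 4-fold. Ezh2, Nsd2, Kmt5a and Kmt5c have the red point far to the right, and Ehmt2 has the widest gap the other way.

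Of the 5 H3K9 methyltransferases, 4 were dimmer in CD45-negative cells, as were 56.7% of all measured genes, and Suv39h2 was brighter. Only Ehmt2 had a value past 2-fold. That of Suv39h2 is a lower bound, and its difference was 1.11 with no detection level. After quantile normalization Ehmt1, Setdb1 and Setdb2 were near level, at -0.20, -0.02 and -0.07. Ehmt2, known as G9a, which works as a pair with Ehmt1 to silence genes, had 246.3 in CD45-negative cells against 2994 in CD45-positive cells. It was 12.2-fold lower, and its other probe set gave -2.68, a bound. Its partner Ehmt1 had 848.5 in CD45-negative cells against 1229 in CD45-positive cells, a difference of -0.53. Setdb1, which silences retroviral elements, had 510.3 against 772.6, and its relative Setdb2 715.1 against 1012, with the CD45-negative value first in each. Suv39h2, an enzyme of heterochromatin, had 183 in CD45-negative cells against 84.8, under the level, in CD45-positive cells, at least 1.81-fold higher. The other measured probe set of Suv39h2 gave a difference of at least 0.04. The partners Ehmt2 and Ehmt1 therefore did not go together.

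H3K4 methyltransferases of the large complexes all differed by less than 4-fold. Setd1a (638.6 in CD45-negative cells against 646.2 in CD45-positive cells) and Setd1b (676.1 against 697.8), which make most of the full H3K4 methylation, differed by -0.02 and -0.05. Kmt2b (1917 in CD45-negative cells against 1398) and Kmt2c (1315 against 1673), of promoters and enhancers, differed by 0.46 and -0.35. Kmt2a, the MLL gene of blood stem cells and leukaemia, had 681 in CD45-negative cells against 2278 in CD45-positive cells, 3.34-fold lower, and its probe sets gave -1.74 and -1.50. Kmt2d, the main enzyme of enhancers beside Kmt2c, differed by -0.86, with 817 in CD45-negative cells against 1483. The other probe set of Kmt2d gave 0.80, leaving its direction unsettled. Setd7, which adds a single methyl group to H3K4 and to many other proteins, had 185 in CD45-negative cells against 1219 in CD45-positive cells, 6.59-fold lower.

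Their shared partners were mixed. Of 9 COMPASS and MLL subunits measured, Paxip1, of the Kmt2c and Kmt2d complexes, was 5.56-fold higher (4185 in CD45-negative cells against 752.3), and its 4 measured probe sets gave 1.46 to 2.48. Men1, of the Kmt2a complex, was 4.78-fold lower (213 in CD45-negative cells against 1018), beside Kmt2a itself. The 1 higher and 1 lower gene made 11.1% each, beside 8.31% and 16.8% of all measured genes. The other 7 were in neither class, and the list's median difference was 0.08.

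Dot1l, the H3K79 methyltransferase, was brighter in CD45-negative cells, with 1045 against 384.2 in CD45-positive cells. Both of its probe sets gave nearly the same difference, 1.44 and 1.51, under 4-fold. Of the SET proteins with other or unclear targets, Setd4 was at least 6.28-fold lower (99.3 in CD45-negative cells, under the level, against 635 in CD45-positive cells). Its measured probe sets ran from -2.65 to 0.60, so its direction is uncertain. Kmt2e (3084 in CD45-negative cells against 4932), Setd6 (193.6 against 398.5), Setd5 (389.5 against 307.9) and the actin methyltransferase Setd3 (1920 against 1017) were in neither class.

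The arginine methyltransferases with a Prmt symbol were dimmer in CD45-negative cells by their brightest probe sets. All 7 measured had a difference under 0, beside 56.7% of all measured genes, and their median was -1.84 (3.59-fold lower). Prmt1, the main enzyme for asymmetric arginine methylation, had 825 in CD45-negative cells against 3123 in CD45-positive cells, 3.79-fold lower. Prmt5, the main enzyme for symmetric methylation, had 675.6 against 1546, and its partners Wdr77 (548.9 against 2038) and Clns1a (4948 against 10421) were dimmer as well by their brightest probe sets, with the CD45-negative value first in each; the probe sets of Wdr77 ran from -1.89 to 0.47. Prmt3, which methylates a ribosomal protein, had 255.8 in CD45-negative cells against 1879 in CD45-positive cells, 7.34-fold lower. Its 4 measured probe sets ran from -2.88 to -0.32, and their mean was -1.87, under 4-fold. Prmt9, which methylates a splicing factor, was 4.37-fold lower by its brightest probe set (163.1 in CD45-negative cells against 713.3), but its probe sets ran from -2.13 to 0.17. Prmt7 had 335.8 in CD45-negative cells against 772.8, Prmt2 had 69.3 against 363.0 and Prmt6 had 72.7 against 146.9, the last pair being under the level in CD45-negative cells. Prmt8 was under the level in both arrays (31.0 in CD45-negative cells and 8.4 in CD45-positive cells).

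One arginine methyltransferase outside the Prmt symbols went the other way. Carm1, a coactivator that methylates H3 and splicing factors, had 5857 in CD45-negative cells against 989.6 in CD45-positive cells, 5.92-fold higher by its only measured probe set. The direction of all 7 Prmt genes held after quantile normalization, with a median of -1.34. With no detection level 7 of 8 were dimmer, the exception being Prmt8.

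Acetyltransferases were mostly level or dimmer, and the relatives Kat2a and Kat2b parted. Kat2a, known as GCN5, the acetyltransferase of the SAGA coactivator, had 159.9 in CD45-negative cells against 1145 in CD45-positive cells, 7.16-fold lower, and its 3 probe sets gave -2.84 to -1.54. Kat2b, known as PCAF, which can take its place in the complex, had 4358 in CD45-negative cells against 1885 in CD45-positive cells, a difference of 1.21. Kat8, which acetylates H4, had 424.7 against 1129, and Kat6b 187.7 against 572.2, with the CD45-negative value first. Kat6a, a regulator of blood stem cells, had 1812 in CD45-negative cells against 3023 in CD45-positive cells. Kat5, Kat7 and Kat14 differed by -0.26, -0.12 and -0.48 by their brightest probe sets, while the other measured probe set of Kat14 gave -1.33. Kat2a was the 1 of 8 Kat genes at least 4-fold lower (12.5%, beside 16.8% of all measured genes). None was 4-fold higher, beside 8.31% of all measured genes, and the family's median was -0.61.

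The acetyltransferases named otherwise were brighter in CD45-negative cells, all by less than 4-fold. Ep300 had 3273 in CD45-negative cells against 1356 in CD45-positive cells, its relative Crebbp 4666 against 3668 (its probe sets ran from -0.39 to 0.66), and Hat1, which acetylates newly made histone H4, 4428 against 1422. Among 22 measured subunits of acetyltransferase complexes, the median was -0.30. In each direction 1 gene passed 4-fold (4.55%), beside 8.31% of all measured genes upward and 16.8% downward. The higher one, Brpf3, the scaffold that directs Kat7 to H3, stood at 7540 in CD45-negative cells against 364.8 in CD45-positive cells. It was 20.7-fold higher and both of its measured probe sets passed 4-fold (3.84 and 4.37), while Kat7 itself was level at 2290 against 2483. The lower one, Jade2, a scaffold that directs Kat7 to H4, had 368.7 in CD45-negative cells against 2351 in CD45-positive cells, 6.38-fold lower.

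Among the erasers, the H3K27 demethylases pointed in opposite directions. Kdm6b, known as JMJD3 and induced in activated macrophages, had 321.4 in CD45-negative cells against 3906 in CD45-positive cells, 12.2-fold lower, and its 3 measured probe sets gave -3.60 to -2.47. Kdm6a, known as UTX, which is X-linked and works in the Kmt2c and Kmt2d complexes, had 7492 in CD45-negative cells against 1710 in CD45-positive cells, 4.38-fold higher. The 3 measured probe sets of Kdm6a all pointed up but differed in size, from 0.61 to 2.13, and with the mean of all its probe sets the difference was 0.89. A writer and an eraser of H3K27 methylation, Ezh2 and Kdm6a, were thus both brighter in the CD45-negative array.

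**Figure D4:**
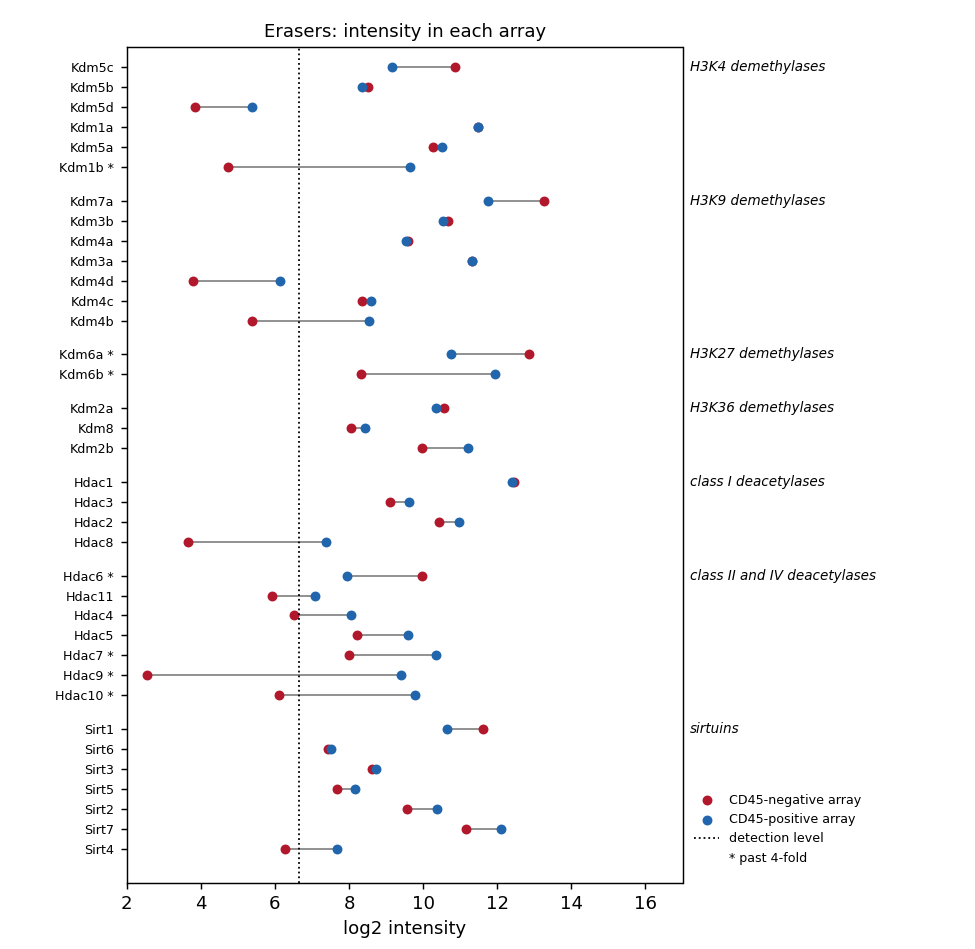
Log2 intensity of each of the 36 erasers in the CD45-negative array (red) and the CD45-positive array (blue), grouped by target site or class; the dotted line is the detection level and an asterisk marks a difference of at least 4-fold. Kdm1a, Kdm3a and Hdac1 have coinciding points, and Kdm6a and Kdm6b lie apart in opposite directions.

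The H3K4 demethylases differed in both directions. Kdm1a, the partner of Gfi1b and Rcor1 in red cell precursors, had 2828 in CD45-negative cells against 2874 in CD45-positive cells, a difference of -0.02. Its corepressor Rcor1 was as level by its brightest probe set (1800 in CD45-negative cells against 1807). The 3 measured probe sets of Rcor1 ran from -0.01 to 1.11. Hmg20b, a further subunit, had 753 in CD45-negative cells against 396.6. Kdm1b, the second enzyme of this kind, was under the level in CD45-negative cells (26.7) and measured in CD45-positive cells (800.1), at least 7.91-fold lower. Kdm5c, X-linked, had 1877 in CD45-negative cells against 572.4 in CD45-positive cells, a difference of 1.71, but its 8 measured probe sets ran from -0.67 to 1.71, and after quantile normalization the difference was 2.10, past 4-fold. Kdm5a (1238 in CD45-negative cells against 1471) and Kdm5b (366.6 against 327.2) were near level by their brightest probe sets. The 4 measured probe sets of Kdm5a ran from -1.26 to -0.25. Kdm5d was under the level in both arrays.

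Most H3K9 and H3K36 demethylases were near level. Kdm3a, an enzyme induced by low oxygen, had 2543 in CD45-negative cells against 2545 in CD45-positive cells, Kdm3b 1625 against 1483, Kdm4a 769.9 against 740.4 and Kdm4c 323.8 against 387.4. Kdm4b was under the level in CD45-negative cells (41.4) and at 375 in CD45-positive cells, at least 3.71-fold lower, and Kdm4d was under it in both. Kdm7a, which removes methyl groups from H3K9 and H3K27, had 9758 in CD45-negative cells against 3456 in CD45-positive cells. Its 3 measured probe sets gave 1.50 to 2.13, so 1 of them passed 4-fold. Kdm2b, which recruits Polycomb proteins to CpG islands, had 1005 in CD45-negative cells against 2388 in CD45-positive cells, while its relative Kdm2a had 1521 against 1296. The other probe set of Kdm2b gave a difference of -0.35, and the 6 measured probe sets of Kdm2a ran from -0.67 to 0.74. Kdm8 had 266.8 against 342.8. Of all 16 measured Kdm genes, Kdm6a passed 4-fold upward (6.25%, beside 8.31% of all measured genes). Kdm6b and Kdm1b passed it downward (12.5%, beside 16.8% of all measured genes). The family's median was -0.01, or 0.34 after quantile normalization.

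Among the class I deacetylases, Hdac1, Hdac2 and Hdac3, nuclear catalytic subunits of the main repressor complexes, were near level. Hdac1 had 5548 in CD45-negative cells against 5352 in CD45-positive cells, Hdac2 1385 against 2027 and Hdac3 546.9 against 792.4, all within 2-fold. Hdac8 was under the level in CD45-negative cells (12.6) and at 167.4 in CD45-positive cells, at least 1.66-fold lower. The median of the 4 class I genes was -0.54, beside -0.26 for all measured genes. The repressor complexes were close to level too. Of 20 measured subunits of the Kdm1a and deacetylase complexes, 15 differed by less than 2-fold (75.0%, beside 50.0% of all measured genes), and the median was 0.11. Tbl1xr1, of the Hdac3 complex, was the 1 gene at least 4-fold lower (5.0%, beside 16.8% of all measured genes). None was 4-fold higher, beside 8.31% of all measured genes. Tbl1xr1 had 334.6 in CD45-negative cells against 1604 in CD45-positive cells, and its 5 measured probe sets ran from -2.26 to -0.89.

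Class II and IV deacetylases, which shuttle between nucleus and cytoplasm or lie in the cytoplasm, were dimmer in CD45-negative cells by their brightest probe sets, except for Hdac6. Hdac7, a regulator of T and B cell development, had 255.5 in CD45-negative cells against 1299 in CD45-positive cells, 5.08-fold lower, with -2.09 by its other probe set. Hdac9, known from regulatory T cells, was at least 6.68-fold lower (5.9 in CD45-negative cells, under the level, against 675.2). Hdac10, a deacetylase of polyamines, was at least 8.63-fold lower (69.0 in CD45-negative cells, under the level, against 872.2). Hdac5 had 295.8 in CD45-negative cells against 768.4, and Hdac4 91.1, under the level, against 263.1, with probe sets from -1.38 to -0.09. Hdac11, the class IV enzyme, was close to the level in both (60.8 in CD45-negative cells and 134.5 in CD45-positive cells), and its second probe set ran the other way, with 126.9 in CD45-negative cells against 27.9 in CD45-positive cells. Hdac6, which deacetylates tubulin, had 1002 in CD45-negative cells against 246.7 in CD45-positive cells, 4.06-fold higher by its only probe set. For the class II members lower in CD45-negative cells, lymphocyte markers were lower as well, with a summed intensity of 2437 in CD45-negative cells against 128524 in CD45-positive cells. So were myeloid markers, with 6086 in CD45-negative cells against 182808 in CD45-positive cells. Their part in these values was not tested.

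Sirtuins, the deacylases that need NAD, differed little. Of 7 measured, 0 passed 4-fold, beside 8.31% of all measured genes upward and 16.8% downward. The median was -0.50, or 0.23 after quantile normalization, so that no direction holds for the family. Sirt1, the best known nuclear member, had 3141 in CD45-negative cells against 1600 in CD45-positive cells, a difference of 0.97. Sirt7, of the nucleolus, had 2267 in CD45-negative cells against 4397 in CD45-positive cells, a difference of -0.96. Sirt6 (173.6 in CD45-negative cells against 181.7) and the mitochondrial Sirt3 (391.4 against 427.7) were level. The cytoplasmic Sirt2 had 761.7 against 1320, and the mitochondrial Sirt4 77.3, under the level, against 204.2, with the CD45-negative value first. Sirt5, also mitochondrial, had 203.6 in CD45-negative cells against 288.3 by its brightest probe set, but a second one gave a difference of -2.17.

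Differences of the 18 enzymes past 4-fold were not equally secure. Hdac6 and Kmt5a (2.02 each), Kdm6a (2.13) and Prmt9 (-2.13) lay just past the threshold, and Prmt1 (-1.92), Kdm4b (-1.89) and Kdm5c (1.71) just short of it. For 5 of the 18, Kdm6a, Nsd1, Prmt3, Prmt9 and Setd4, the mean of the measured probe sets was under 4-fold. With the mean of all probe sets, dim ones included, Hdac9 (-1.21), Hdac10 (-0.54) and Setd7 (-0.18) were also under 4-fold, and Hdac7 (-1.83) was so after quantile normalization. Of the 4 lower enzymes that were under the level in CD45-negative cells, all stayed past 4-fold against 127.2, the same percentile taken from the CD45-negative array, at 4.99-fold for Setd4, 5.31-fold for Hdac9, 6.29-fold for Kdm1b and 6.86-fold for Hdac10. With the 99th percentile as the detection level, Setd4 fell short of 4-fold (-1.99) and 11 enzymes were lower.

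**Figure D5:**
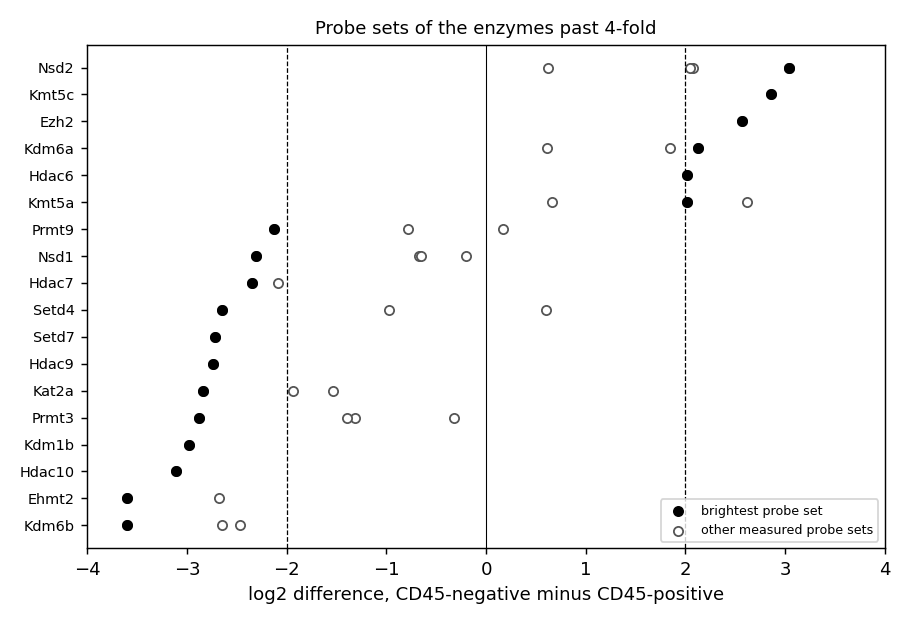
Log2 difference, CD45-negative minus CD45-positive, by each measured probe set of the 18 enzymes past 4-fold; filled points are the brightest probe set, which stands for the gene, open points the others, and dashed lines 4-fold. The probe sets of Kdm6b and Ehmt2 all lie past -2, while those of Prmt9 and Setd4 reach beyond 0.

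Over the lists of 85 other genes of these pathways, 75 were measured. Of these, 4 were at least 4-fold higher and 4 lower in CD45-negative cells (5.33% each), beside 8.31% and 16.8% of all measured genes. Their median difference was -0.38, against -0.26 for all measured genes. Apart from those named above, the lower ones included Riox2, a histidine hydroxylase, which stood at 118.2 in CD45-negative cells against 1128 in CD45-positive cells. It was 9.55-fold lower, and its 3 measured probe sets ran from -3.25 to -1.17.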

How the data were processed

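RNA of 2 sorted spleen cell samples was hybridised to 1 Affymetrix 3' array each, from cRNA labelled with biotin, per the labels' protocols. The table deposited by the authors gives linear intensities, 1 for each probe set in each sample. The submitters' processing notes name GCRMA and Partek 6.6, and which step made these intensities is not settled, nor is the scaling between the arrays. The arrays had median intensities of 85.1 (CD45-negative) and 87.8 (CD45-positive).

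Of 45037 probe sets, 34945 had 1 gene symbol in GEO's platform annotation, 932 had several and 9160 were unnamed there; the last 2 kinds were not used. The log2 of each intensity was taken, without pseudocount or renormalization. The probe set with the highest mean log2 value stood for a gene. Detection used the 95th percentile of receptor probe sets (log2 6.66), and 4-fold (2 on the log2 scale) was the threshold. All 79 symbols matched RefSeq genes of GRCm38.p6 by Entrez identifier. The precision is limited by the number of arrays, 1 per group.

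The members, gene lists, mark assignments and motif words were chosen with earlier results of these data known. Named were all enzymes past 4-fold, relatives that differed, and list members past 4-fold. Other genes were named after their values were seen. Alternatives changed the probe set rule, scaling, detection level, threshold and membership. The steps ran in Python 3.11.15 (with numpy 2.4.6, pandas 2.3.3, and matplotlib 3.10.9 for figures) and were tested on simulated data.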

Additional observations from a re-analysis of the deposited data

How the results depend on the processing

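No paired analysis was possible because each group had 1 array. The counts of 6 higher and 12 lower enzymes became 10 and 26 with a 2-fold threshold, beside 16.8% and 33.3% of all measured genes. With the mean of all probe sets of a gene, 5 enzymes were lower and the writers' median was -0.41; dim probe sets enter that mean. Quantile normalization gave a median of 0.01 for all measured genes in place of -0.26, and moved the writers' median to -0.21 and the erasers' median to -0.10. Among the other genes of the pathway, higher and lower counts of 4 each became 2 and 0 with the mean of all probe sets and 2 and 2 with the mean of the measured ones (an alternative chosen after seeing the data); 2 were lower after quantile normalization and 7 without a detection level. The cause of these shifts was not tested. Of 659 values of single enzymes under the alternatives, 636 moved by less than 0.83, and no enzyme past 4-fold turned its direction under the alternatives run. Many of these values could not move. Leaving out some members does not change the others, and 27 enzymes had 1 probe set. Changes of detection level do not reach genes well above it in both arrays. The count is therefore no measure of how secure the differences are. Ehmt2, Ezh2, Hdac6, Kat2a, Kdm1b, Kdm6b, Kmt5a, Kmt5c and Nsd2 passed 4-fold in all 8 alternatives that changed scaling, probe sets or detection. Ezh2, Hdac6, Kdm1b and Kmt5c had 1 probe set each, so the alternatives that changed probe sets could not move them. For Ezh2, Hdac6 and Kmt5c, measured in both arrays, the changes of detection level made no difference either. Their place in this list is thus no sign of greater security.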

Other observations

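A probe set annotated to both Kdm6b and 1700064E03Rik, which took no part in the comparison, had 79.5 in CD45-negative cells against 1602 in CD45-positive cells, a difference of -4.33. This runs the same way as the 3 probe sets named for Kdm6b alone. Leaving out probe sets whose names mark them as shared between transcripts added Sirt5 to the lower enzymes, at -2.17. Of the 44 enzymes with several measured probe sets, the pooled SD between probe sets was 0.72 on the log2 scale, against 0.83 over all genes.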
